A study of Caenorhabditis elegans with 2 samples.

Results

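Peaks at tRNA genes were described in a chromatin immunoprecipitation and sequencing (ChIP-seq) study of NHR-47, a nuclear hormone receptor of the nematode Caenorhabditis elegans. A thresholded peak was counted here when its summit, the highest point of the peak, lay from 500 bp before to 200 bp after the 5′ end of a nuclear tRNA gene. This held for 248 of the 5357 peaks in the authors' thresholded list, or 4.63%. The 248 peaks lay at 264 of 612 nuclear tRNA genes, since neighbouring tRNA genes can share a peak.

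The larvae were whole hermaphrodite L1 animals of strain OP481, which carries the transgene wgIs481 in an unc-119(tm4063) III background and expresses NHR-47 fused at its C-terminus to GFP-FLAG. They were starved after bleaching to synchronize them and collected 6 h after synchronization. There was 1 group with 2 biological replicates and no second condition, so the results are descriptions within the group, and the intervals on shares cover counting error only. One label names nhr-47 as the antibody target, and another describes precipitation with an antibody against GFP. Regions were called against a control, which was not analysed here, so the level of the same sites in a control was not tested. The animals were a mixture of all larval tissues, so the cells that contributed each peak cannot be told apart. Depth per library is unknown, because the files hold regions and scores and no read counts.

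Transfer RNAs carry amino acids to the ribosome and are transcribed by RNA polymerase III. Their promoters lie inside the gene, in an A box near the start and a B box further in, which the factor TFIIIC recognises. TFIIIC then places TFIIIB just upstream of the start, and TFIIIB recruits the polymerase. A run of T residues after the gene ends transcription. The worm genome holds many tRNA genes of identical sequence, so copies share the internal promoter and differ in the DNA around them.

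Identical copies with and without a peak are printed to show what such copies share and where they differ. The sequences are those of the reference genome WBcel235, the assembly also called ce11, from RefSeq, 5′ to 3′ on the strand of the gene. In each gene, the capitals mark the B box core GTTCNANNC, which begins at base 52 of 72 in all 4 genes. In each upstream stretch of 60 bases, the capitals mark positions -33 to -22 before the gene's first base. Within these, T was the commonest base at -30, A at -28 and C at -23, both in genes with a peak and in genes without one. The 4 sequences are those of a proline gene at chrIII:11066848-11066919 on the minus strand, a threonine gene at chrX:3371422-3371493 on the minus strand, an alanine gene at chrX:9743747-9743818 on the plus strand and a glutamine gene at chrX:410391-410462 on the plus strand.
W09D6.t2 gene, proline: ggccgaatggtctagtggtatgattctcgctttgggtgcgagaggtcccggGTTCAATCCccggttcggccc
ZK563.t1 gene, threonine: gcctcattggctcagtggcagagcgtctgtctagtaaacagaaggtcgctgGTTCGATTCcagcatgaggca
F15G9.t2 gene, alanine: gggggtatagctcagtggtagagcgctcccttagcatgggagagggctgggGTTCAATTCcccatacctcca
R04A9.t1 gene, glutamine: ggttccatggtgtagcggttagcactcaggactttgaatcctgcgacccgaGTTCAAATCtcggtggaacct

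The DNA just before the gene differed between the copy with the strongest peak and a copy of the same sequence with no region in the pooled list. The peaks of W09D6.t2 and F15G9.t2 were each shared with a neighbouring tRNA gene. The upstream stretches of W09D6.t2 (chrIII:11066920-11066979, minus strand), ZK563.t1 (chrX:3371494-3371553, minus), F15G9.t2 (chrX:9743687-9743746, plus) and R04A9.t1 (chrX:410331-410390, plus) belong to genes with a peak. Those of C16B8.t1 (chrX:3969496-3969555, plus), R04D3.t1 (chrX:13293132-13293191, plus), F48E3.t1 (chrX:7507362-7507421, minus) and H08J11.t5 (chrX:9090699-9090758, minus) belong to genes with none.
W09D6.t2 upstream, peak, proline: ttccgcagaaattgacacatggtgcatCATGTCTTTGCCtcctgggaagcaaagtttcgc
C16B8.t1 upstream, no region, proline: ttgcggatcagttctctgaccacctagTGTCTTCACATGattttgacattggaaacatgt
ZK563.t1 upstream, peak, threonine: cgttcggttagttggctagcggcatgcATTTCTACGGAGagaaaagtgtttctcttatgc
R04D3.t1 upstream, no region, threonine: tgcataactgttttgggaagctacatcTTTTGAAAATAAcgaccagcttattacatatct
F15G9.t2 upstream, peak, alanine: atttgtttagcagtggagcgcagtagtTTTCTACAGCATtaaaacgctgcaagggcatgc
F48E3.t1 upstream, no region, alanine: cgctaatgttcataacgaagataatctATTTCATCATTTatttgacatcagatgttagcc
R04A9.t1 upstream, peak, glutamine: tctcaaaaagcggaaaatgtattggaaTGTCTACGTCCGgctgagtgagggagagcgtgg
H08J11.t5 upstream, no region, glutamine: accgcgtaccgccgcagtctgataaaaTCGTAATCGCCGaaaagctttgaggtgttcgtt

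Peaks were found at a larger share of tRNA genes than of any other gene class counted. A thresholded summit lay in the window of 264 of 612 tRNA genes, or 43.1% (95% Wilson interval 39.3 to 47.1). The same window held one at 2566 of 19973 protein-coding genes, a background of 12.8%. A further 126 tRNA genes had only a weaker region, one that is in the pooled list of 30000 regions but not in the thresholded list. With these, 63.7% of tRNA genes had any region of the pooled list, against a background of 28.3% of protein-coding genes. The remaining 222 tRNA genes are called genes with no region. Of these, 68 did have a region in a replicate's own list, so the name refers to the pooled list only.

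Among other noncoding genes, the share was 32.1% of 346 snoRNA genes (27.4 to 37.2) and 27.1% of 129 snRNA genes (20.2 to 35.4). The interval of the tRNA genes lay above both, and no test of the difference was made. It was 14.9% of 261 miRNA genes. None of the 20 rRNA genes had a peak, which allows a share of up to 15%. Of 209 tRNA pseudogenes named in RefSeq, sequences that resemble tRNA genes but are annotated as not functional, 3 had a peak, or 1.44% (0.489 to 4.13). With weaker regions, 37 pseudogenes had any region, or 17.7%.

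**Figure D1:**
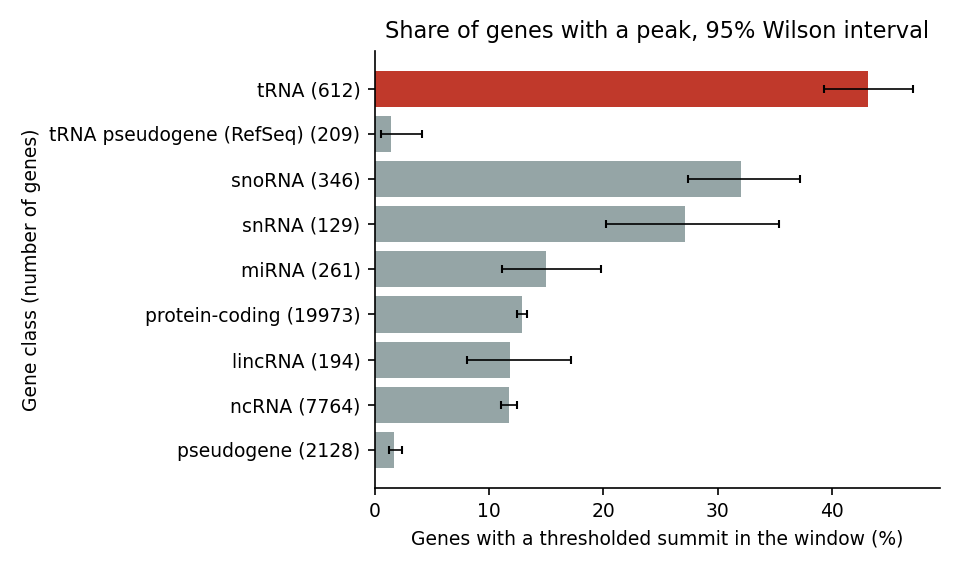
The horizontal axis gives the percentage of genes of each class with a thresholded summit in the window, and the whiskers are 95% Wilson intervals. tRNA genes, drawn in red, reach 43.1%, and tRNA pseudogenes 1.44%.

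Summits at tRNA genes lay close to the start of the gene. The median distance from the nearest tRNA 5′ end was -18.5 bp, that is 18.5 bp upstream, with quartiles of -28 and 1.25 bp. Of the 248 summits, 206 (83.1%) lay within 50 bp of the 5′ end and 232 (93.5%) within 100 bp. Upstream summits numbered 181 (73.0%), and 56 (22.6%) lay inside the tRNA gene itself. By comparison, 14.8% of 2094 summits in protein-coding windows lay within 50 bp, at a median of -162 bp. For 118 summits at snoRNA genes the share was 41.5% and the median -51.5 bp. The member nearest the upstream edge was at -449 bp with a signal of 281, and the first peak beyond it was at -529 bp with 221. The member nearest the downstream edge was at 185 bp with a signal of 110, and the first beyond it at 204 bp with 117.

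**Figure D2:**
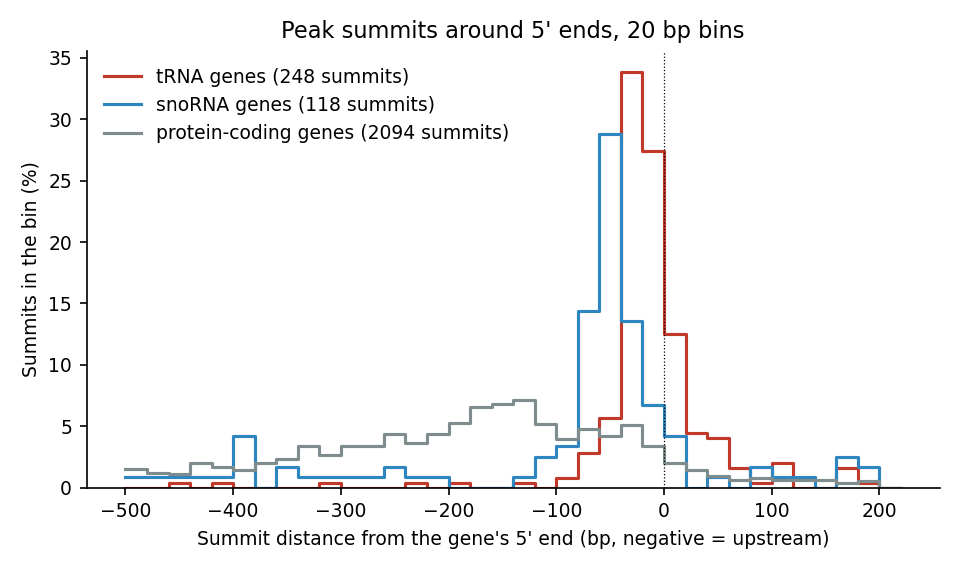
The horizontal axis is the distance of a summit from the 5′ end of the nearest gene of the class in bp, and the vertical axis the percentage of that class's summits in each 20 bp bin. The tRNA curve is highest from -40 to -20 bp, with 33.9% of its 248 summits, and the protein-coding curve is broad and lies further upstream.

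Peaks at tRNA genes were mostly of middle strength in the list, with a median above that of the other peaks. The signal is the caller's own enrichment score and has no unit. It ranged from 77.4 to 1005 at tRNA genes with a median of 198, against a median of 154 and a maximum of 4060 over the 5109 other thresholded peaks. Ranked by signal, the strongest stood at 178 and the median at 2107 of 5357. None of the 100 strongest peaks lay at a tRNA gene, but 14 of the top 500 did (2.8%), 45 of the top 1000 (4.5%) and 159 of the stronger 2678 (5.94%). Peaks at tRNA genes made up 4.63% of the whole list. The tRNA peaks had a median width of 313 bp against 420 bp for other peaks. The upper quartile was 420 bp in both sets, a single width shared by many peaks, at tRNA genes mostly weaker ones. Whether the difference in width follows the difference in signal was not tested. The weakest signal at a tRNA gene, 77.4, was close to the lowest in the list, 77.0, and the strongest region at a tRNA gene just below the threshold had 76.7.

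Both replicates held nearly all of these peaks. A region overlapped the peak in both replicates' own lists for 243 of 248 peaks (98.0%), against 5069 of 5109 other peaks (99.2%). The remaining 5 were in replicate 1 only. Replicate signals at tRNA genes ran from 15.8 through a median of 84.7 to 455 in replicate 1 and from 17.1 through 114.5 to 553 in replicate 2. To compare replicates, a relative signal was formed by dividing each value by that replicate's median, taken over the peaks that had a region in both lists. The median relative signal was 1.26 at tRNA genes and 0.977 at other peaks. The log2 ratio of replicate 2 to replicate 1 in relative signal had an SD of 0.39 over the tRNA peaks and 0.50 over other peaks. Within 2-fold of each other were 97.1% of tRNA peaks and 94.8% of others. The thresholded list was itself chosen for agreement between the replicates, so high agreement was partly built in for both sets.

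**Figure D3:**
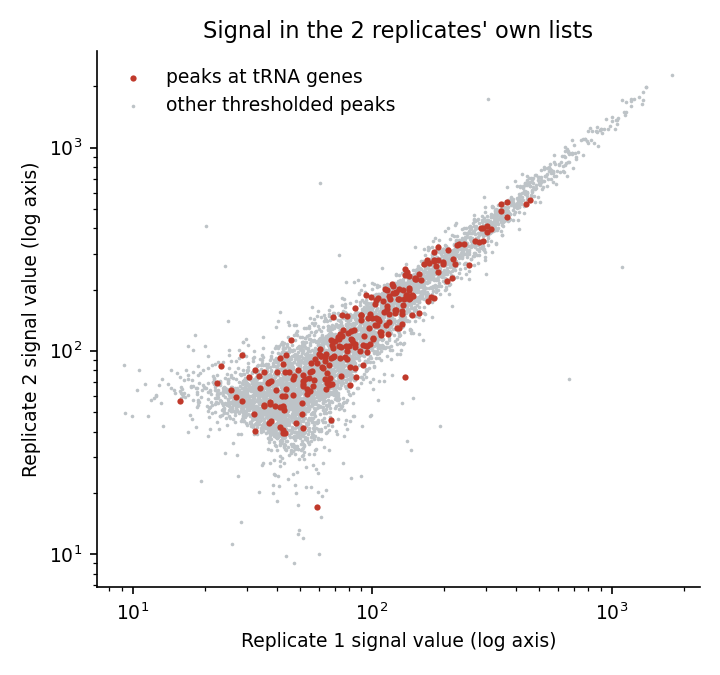
Each point is a thresholded peak found in both replicates, with the signal in replicate 1 on the horizontal axis and in replicate 2 on the vertical axis, both logarithmic. The 243 peaks at tRNA genes, in red, lie along the same diagonal as the 5069 others and stop at 455 and 553.

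The single-replicate lists gave similar numbers of tRNA genes. In the 5357 strongest regions of each list, replicate 1 placed a summit at 269 tRNA genes and replicate 2 at 263. Both lists held 238 of these genes, and 56 genes were in one list only. Neither replicate had a region of any strength at 158 tRNA genes.

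The strongest peak at a tRNA gene lay by R04A9.t1, a glutamine tRNA gene on X in an intron of ZK1193.2 on the opposite strand. Its signal was 1005 in the pooled list, 455 in replicate 1 and 553 in replicate 2, a relative signal of 6.41 ± 0.58 (SD, n = 2). Its summit was 140 bp upstream, further than most. A glutamate gene, M02F4.t2, shared the next peak with the glycine gene M02F4.t1 and had a signal of 967, with 439 and 526 in the replicates. An asparagine gene, F41D9.t3, lay in an intron of sulp-3, which encodes a sulphate permease family anion transporter, and had 915, with 365 and 542. All 3 summits lay upstream of the gene, and all 3 genes are on X.

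The glutamate gene C28G1.t1 had a signal of 868, and its summit also fell in the windows of sec-15, a subunit of the exocyst that tethers secretory vesicles, and of C28G1.2, whose exon it overlaps. The serine gene C53C7.t2 (834) shared its peak with a second tRNA gene. F47G6.t1, an arginine gene with a signal of 818, was the only autosomal gene besides W09D6.t2 among the 12 strongest, and lay in an intron of spe-15, a myosin gene. The other 10 of the 12 were on X.

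The tyrosine gene R11.t1 had a signal of 718, with 301 and 413 in the replicates. The alanine gene F15G9.t2 (707) lay in an intron of him-4, the gene for the extracellular matrix protein hemicentin. The proline gene W09D6.t2 (697) lay in an intron of rsa-2, which encodes a centrosome protein. The leucine gene C04E7.t1 (685) had its summit in the window of sor-3 as well. The list of 12 closed with the proline gene F46G11.t2 (634) and the leucine gene C04A11.t1 (618), whose summit lay 6 bp inside the gene. It was the only one of the 12 with a summit not upstream of the gene. The peaks at F15G9.t2, W09D6.t2 and F46G11.t2 were each shared with another tRNA gene.

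The 3 weakest peaks at tRNA genes had a region in both replicates. The glycine gene ZK154.t3 had 79.8 in the pooled list, with 37.8 and 45.0 in replicates 1 and 2. The glutamate gene Y39B6A.t10 had 78.4, with 42.4 and 39.4. The lysine gene C40C9.t2 had 77.4, with 32.6 and 40.03.

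Genes for all 20 standard amino acids, and the single selenocysteine tRNA gene, had at least one peak. By amino acid, the share was highest for phenylalanine, with 8 of 14 genes (57.1%, 32.6 to 78.6), cysteine, with 7 of 13 (53.8%), and glutamate, with 22 of 41 (53.7%, 38.7 to 67.9). It was lowest for histidine, with 5 of 20 (25%, 11.2 to 46.9), tryptophan, with 3 of 12 (25%), and tyrosine, with 5 of 19 (26.3%). The intervals were wide, and those of all 20 standard amino acids took in the 43.1% of all tRNA genes. None of the 5 tRNA genes without an annotated amino acid had a peak or a weaker region.

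**Figure D4:**
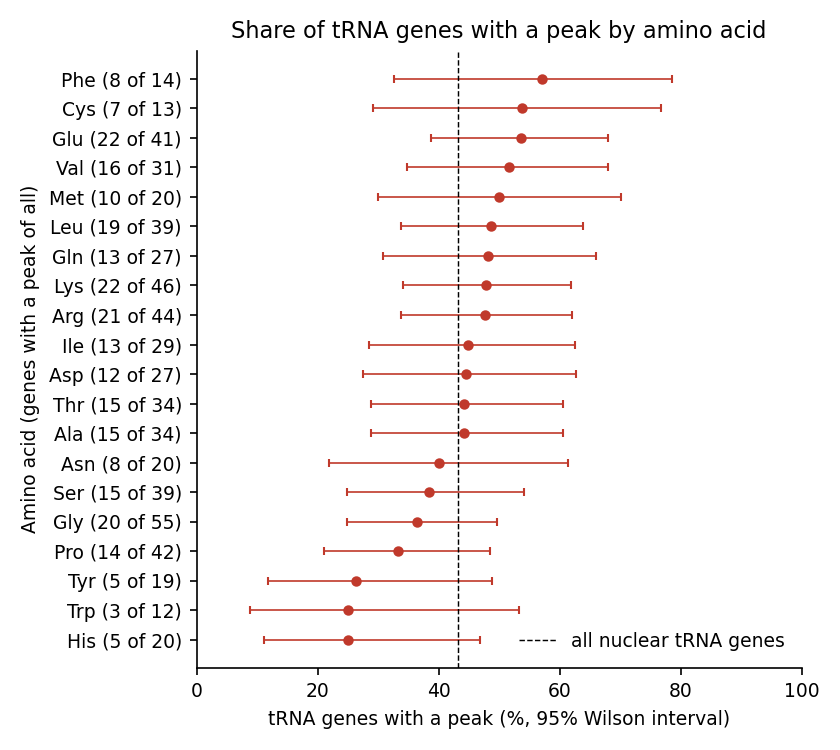
Points give the percentage of tRNA genes of each amino acid with a thresholded peak on the horizontal axis, with 95% Wilson intervals, and the dashed line marks the 43.1% of all nuclear tRNA genes. Phenylalanine is highest at 57.1% and histidine and tryptophan lowest at 25%, and every interval crosses the line.

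Proline genes with a peak had a high median signal when counted by gene. Of 42 genes, 14 had a peak (33.3%, 21.0 to 48.4), and the median signal at those genes was 441, above the 202 over all 264 genes with a peak. These medians count a shared peak once for each gene. The proline peaks of 697, 634 and 441 were each shared by neighbouring proline genes. T23F1.t2 shared its peak of 577 with the lysine gene T23F1.t1. Signals at proline genes ran from 96.4 to 697. Of the 55 glycine genes, 20 had a peak (36.4%, 24.9 to 49.6), with a median signal of 188. Among amino acids not yet named, the strongest peak by nearest gene was at F57F5.t1 for isoleucine (617), T23F1.t1 for lysine (577), C06G1.t1 for histidine (502), R04D3.t2 for valine (460) and C37A2.t1 for cysteine (447). Below these were F17H10.t1 for glycine (432), C02F12.t1 for methionine (388), Y39B6A.t9 for phenylalanine (384) and T14F9.t1 for aspartate (378). The weakest of these leading peaks were at R01H5.t1 for threonine (335) and B0523.t1 for tryptophan (330). Glycine and threonine genes also shared stronger peaks whose nearest gene was of another amino acid. These had signals of 967, shared by a glycine gene with the glutamate gene M02F4.t2, and 372, shared by a threonine gene with the lysine gene W09G10.t2.

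The anticodon, the 3 bases that pair with the codon, could be read by a stem and loop search in 554 of the 612 genes. Peaks were seen at 7 of 8 arginine genes with anticodon TCT and at 8 of 19 with ACG. They were seen at 12 of 19 valine genes with AAC, but at 4 of 19 leucine genes with AAG, against 3 of 3 with TAG. None of the 4 isoleucine genes read as TAT and none of the 3 glycine genes read as CCC had one. The median share of unique 36-base sequences around the 5′ end was 64.7% in these isoleucine genes and 21.4% in these glycine genes, against 81.6% over genes with a peak, and its part in the result was not tested. These anticodons were picked after their values were seen, and the counts are small.

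The selenocysteine gene K11H12.t1, named here although the rule for named genes did not choose it, decodes a UGA codon and is the only gene of its kind in the annotation. Its peak had a signal of 508 at rank 607, with 189 and 325 in the replicates and a relative signal of 3.18 ± 0.49 (SD, n = 2). The gene lies at chrIV:658181-658266 on the plus strand, and its sequence is printed with the B box core in capitals because its longer form places that core later, at base 66 of 86.
K11H12.t1 gene, selenocysteine: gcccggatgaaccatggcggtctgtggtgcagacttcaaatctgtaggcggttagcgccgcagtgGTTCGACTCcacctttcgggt

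Identical tRNA genes often differed in having a peak. The 612 genes fell into 200 groups of identical sequence, of which 57 held 2 or more copies. Of the 57, 41 held copies with and copies without a peak, in 9 all copies had one and in 7 none had. All 20 groups of 10 or more copies were of the mixed kind. Genes with at least one identical copy had peaks more often, at 229 of 469 (48.8%), against 35 of 143 genes of a sequence found once (24.5%).

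The groups whose sequences are printed above were all mixed. The proline group had 24 copies, of which 9 had a peak with signals from 96.4 to 697, 9 had a weaker region and 6 had none. In the threonine group, 7 of 15 copies had a peak, with signals from 87.8 to 333. In the alanine group, 10 of 15 had one, from 100.8 to 707. In the glutamine group, 9 of 15 had one, from 86.0 to 1005, with H08J11.t4 among them only through a summit next to H08J11.t3. Copies of the same gene thus spanned the range from no region to the strongest peak at any tRNA gene.

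Genes with and without a peak had the same median share of unique sequence, but genes with the least and with the most of it had few peaks. The share of 36-base sequences that occur once in the genome, over 301 bp around the 5′ end, had a median of 81.6% both in genes with a peak and in genes without one. It fell under 50% for 0 of 264 genes with a peak and 21 of 348 without. In the same direction as the copy number, the share of genes with a peak was 48.3% where 50 to 90% of these sequences were unique 25% where more than 90% but not all were, and 10.5% (2 of 19 genes) where all were. The read length is not given in the sources used here, and the part of read placement in the result was not tested.

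Internal promoter sequences were equally common in genes with and without a peak. The B box core GTTCNANNC, searched on the strand of the gene, occurred in 254 of 264 genes with a peak (96.2%) and 333 of 348 without one (95.7%). The A box core TNGCNNA occurred in 57.6% and 54.9%, and a run of TTTT within 30 bp after the gene in 99.6% and 98.3%. The A box core as searched requires a C right after the G, so a gene without a match does not thereby lack an A box. The printed genes W09D6.t2 and R04A9.t1 had no match to it. An intron within the tRNA gene was annotated in 4.55% of genes with a peak and 4.89% of those without. Around the summits, a B box core lay within 150 bp of 236 of 248 tRNA peaks (95.2%, 91.7 to 97.2), since the tRNA gene is near by the way the peaks were chosen, and of 7.95% of other peaks. It was found in 9.34% of 301 bp windows at protein-coding 5′ ends.

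Upstream DNA was richer in G and C at genes with a peak. Over the 60 bp before the gene, G+C content averaged 46.0% ± 8.2 (SD over 264 genes) in genes with a peak and 40.1% ± 9.3 (SD over 348 genes) in genes without one. Genes with only a weaker region averaged 40.9%, and genes with no region 39.6%. Within groups of identical genes, the mean was higher in copies with a peak than in copies without in 30 of 41 mixed groups, with a median difference of 6.35 percentage points. In the printed groups it was 42.8% ± 3.9 in alanine copies with a peak and 36.3% ± 4.3 in those without, and 46.0% ± 9.9 and 36.7% ± 9.1 in threonine copies. In the glutamine group it was 44.6% ± 6.1 in copies with a peak and 44.2% ± 11.3 in those without. The spreads of the 2 kinds of copy overlapped.

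The stretch within 50 bp of the summit had a median G+C content of 49.5% at tRNA peaks and 44.6% at other thresholded peaks. Among regions below the threshold, it was 41.6% at tRNA genes and 36.6% elsewhere. Thresholded peaks thus had the higher G+C content both at tRNA genes and elsewhere, and the part of base composition in the result was not tested.

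**Figure D5:**
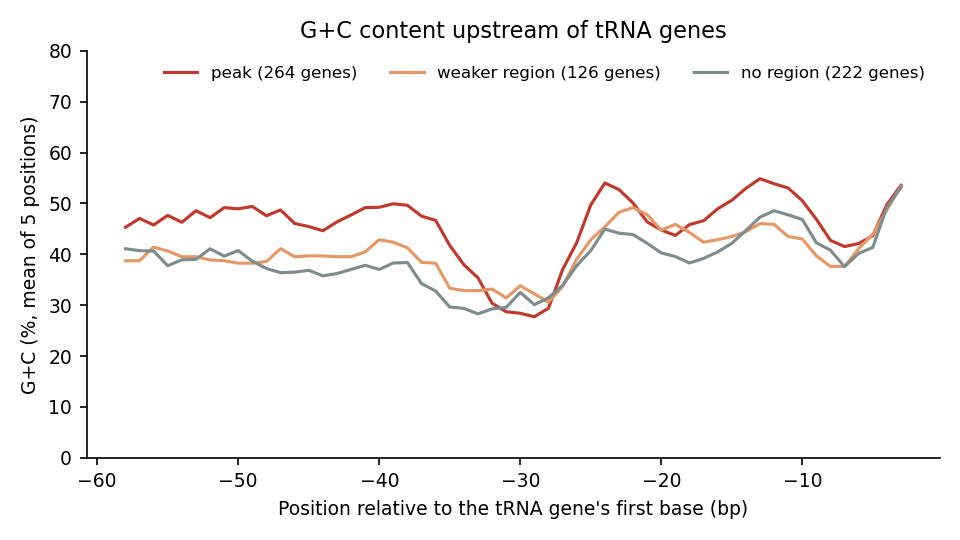
Lines give the G+C percentage, averaged over 5 neighbouring positions, against position before the first base of the tRNA gene. They are drawn for genes with a peak, with a weaker region only and with no region in the pooled list. The line for the 264 genes with a peak is above that for the 222 genes with no region over most of the stretch and dips around position -30 in all groups.

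Single positions stood out within this stretch. At position -30, T was present in 61.4% of genes with a peak and 48.0% of genes without. At -23, C was present in 48.5% and 39.1%, and at -25, G in 39.0% and 26.7%. At -28, A was present in 42.4% of genes with a peak and 34.5% without. These positions were picked after their values were seen.

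The X chromosome held a similar share of tRNA peaks and of tRNA genes. Of the 248 peaks, 116 lay on X (46.8%, 40.7 to 53.0), where 45.1% of tRNA genes lie, against 20.5% of all thresholded peaks and 17.7% of the nuclear genome's length. Among tRNA genes on X, 127 of 276 had a peak (46.0%, 40.2 to 51.9). On chromosome III it was 36 of 64 (56.25%, 44.1 to 67.7), on II 26 of 57 (45.6%), on I 25 of 66 (37.9%), on IV 26 of 71 (36.6%) and on V 24 of 78 (30.8%, 21.6 to 41.7). The intervals of III and V did not overlap, and those of the other pairs did. The median signal of genes with a peak was 241 on X and 183 to 216 on the autosomes. Genes in the central 50% of the autosomes had a peak in 41.8% of cases and genes in the outer parts in 39.8%, and on X the shares were 47.7% and 44.0%.

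Genes with and without a peak lay inside protein-coding genes about equally often. Of genes with a peak, 126 of 264 lay inside a protein-coding gene (47.7%), and of those without, 164 of 348 (47.1%). Most were intronic, 122 with a peak and 161 without. A peak was present at 67 of 160 genes in an intron on the strand of the host (41.9%), 55 of 122 on the opposite strand (45.1%) and 138 of 322 outside protein-coding genes (42.9%). The genes with a peak had 113 different host genes. Of tRNA summits, 32 (12.9%) also lay in the promoter window of a protein-coding gene, against 2062 of 5109 other summits (40.4%). The median signal of those 32 was 188, and that of the remaining tRNA peaks 198.

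Peaks were more often at tRNA genes that stood alone. Of genes with a peak, 83 of 264 had another tRNA gene within 1 kb (31.4%, 26.1 to 37.3), and of genes without one, 153 of 348 (44.0%, 38.8 to 49.2). By distance to the next tRNA gene, the share with a peak was 42.2% under 200 bp, 22.95% from 200 to 500 bp, 34.8% from 500 bp to 1 kb, 40.4% from 1 to 5 kb and 50.5% beyond 5 kb. The group under 200 bp includes pairs that share a peak, as 22 peaks lay in the windows of 2 or 3 tRNA genes.

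Neighbours in different orientations differed in how often only one of the pair had a peak, and no test of this was made. Of 51 divergent neighbour pairs within 1 kb, which start from a common stretch of DNA, 12 had a peak at both genes, 5 at one and 34 at neither, and 11 pairs shared a peak. Of 28 convergent pairs, 5 had a peak at both, 13 at one and 10 at neither, with 2 shared. Of 57 pairs in the same direction, 12 had a peak at both, 18 at one and 27 at neither, with 9 shared. A divergent pair has both 5′ ends near each other, so that one summit can lie in both windows.

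The largest cluster of tRNA genes with peaks, 6 genes in chrX:8154445-8156707, had 3 genes with a peak. F22F1.t3 for aspartate had a signal of 108, with 43.2 and 59.97 in the replicates. F22F1.t6 for methionine had 149, with 69.0 and 93.1, and F22F1.t7 for isoleucine had 154, with 67.2 and 92.2. F22F1.t5 for aspartate had a weaker region of 40.6, and F22F1.t2 and F22F1.t4 for serine had no pooled region. Each of the 3 signals was below the median of 198 for tRNA peaks.

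Other clusters were picked after their values were seen and showed how neighbours of one amino acid can differ. The 6 histidine genes F28H6.t2 to F28H6.t7 in chrX:14135045-14137010 had no thresholded peak, and weaker regions of 46.4 at F28H6.t2 and 37.2 at F28H6.t5. Unique 36-base sequences made up 0 to 76.7% of the sequence around the 5′ ends of these 6 genes, and the part of this in the result was not tested. Of the 4 tyrosine genes R11.t1 to R11.t4, spread over chrX:16208263-16209852, R11.t1 had the peak of 718 named above, R11.t4 and R11.t3 had weaker regions of 30.3 and 19.1, and R11.t2 had none. H08J11.t4 and H08J11.t3, 2 of 5 glutamine genes in chrX:9090627-9091628, had the same peak of 312 in their windows. The printed copy H08J11.t5 in the same cluster had none. The summit lay 13 bp upstream of H08J11.t3. H08J11.t4 was much further from it, with H08J11.t2 between, and counted only through the far part of its window.

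Genes of the tRNA transcription and processing machinery were looked up with the same window, from a list of which 40 symbols were found in the annotation and 3 were not. Of the 40, 11 had a thresholded summit (27.5%, exact 95% interval 14.6 to 43.9), against the background of 12.8% of protein-coding genes. By role, these were 6 of 11 polymerase III subunits, 1 of 5 genes of TFIIIB and TFIIIC, 3 of 14 genes listed for RNA modification and 1 of 6 maturation and export genes. Other polymerases share several of the subunits, and adr-1 on the modification list, which had no peak, is not specific to tRNA. The 6 were rpc-1, rpac-19, rpb-5, rpb-6, rpb-8 and rpb-10. The subunit genes rpc-2, rpc-11, rpc-25, rpac-40 and rpb-12 had no peak, so rpc-1 was the only rpc gene with one. None of the 3 genes of SNAPc, a factor for small nuclear RNA genes, nor mafr-1, which encodes a repressor of polymerase III, had one.

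The strongest summit on this list was at pus-1, for a pseudouridine synthase, with a signal of 452 and a relative signal of 2.85 ± 0.29 (SD, n = 2). The TFIIIC subunit gene tftc-1 had 450, with 310 in replicate 2 and no region in replicate 1. The Elongator subunit gene elpc-2 had 405, the tRNA methyltransferase gene trm-1 had 346, and the polymerase subunit genes rpac-19 and rpb-10 had 302 and 233. None of these summits lay in the window of a tRNA gene.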

How the data were processed

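Anti-GFP ChIP-seq regions from 2 replicates of 1 group were used. Regions were called against a control and combined by the irreproducible discovery rate (IDR), per the labels' file index. Which aligner, caller and cutoff were used is not given in the sources used here. In the deposited lists, column 7 is a signal value from the peak caller, not scaled between lists, that moves with depth. The deposited column 9, a −log10 q-value, entered no result. The authors' column 10, of another kind, is the summit's offset from the region's start. Depth per sample is unknown.

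Positions came from the ce11 lists, thresholded (5357 peaks) and pooled (30000 regions), with the Ensembl annotation of WBcel235; amino acids and tRNA pseudogenes came from RefSeq. Mitochondrial genes were left out. A replicate value is the signal of the region with the nearest summit among those in that replicate's list that overlap the peak by at least 1 bp. Shares carry Wilson or, for the machinery list, exact 95% intervals. A share with a count of 0 is limited by 3 counts. Motifs within and just after tRNA genes were searched on the strand of the gene, and the B box core around summits on both strands. The anticodon search needed a stem of 5 base pairs with at least 4 formed and a match to the annotated amino acid. Scripts ran in Python 3.11.15 with numpy 2.4.6, pandas 2.3.3, scipy 1.17.1, Biopython 1.88 and matplotlib 3.10.9 and were tested on simulated data. There were 0 unused per-sample columns.

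Named genes were the 12 strongest and the 3 weakest peaks, the strongest gene of each amino acid with 2 or more genes with a peak, pairs from up to 4 groups of identical genes, the members of the largest cluster with peaks, hosts and promoter genes of the 12 strongest, and up to 6 genes of the machinery list. The members and lists were chosen with earlier results of these data known. Alternatives were each replicate alone, a narrower window, a stricter threshold, other region lists, summits away from protein-coding windows, and other B box settings; limits on repeated sequence and on chromosomes were chosen after seeing the data.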

Additional observations from a re-analysis of the deposited data

How the results depend on the processing

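Of 53 alternative values over 9 results, 43 stayed within the limits set for a like value and 10 moved. A reversed direction could be recorded only for the median ranks in the replicates' own lists, where it did not occur. With either replicate's own list alone, the number of peaks was 252 and 253, the median relative signal was 1.22 in both, and the median summit distance ran from -18 to -15 bp. The stronger 2678 peaks left 159 at tRNA genes, with 28.6% of tRNA genes, a median relative signal of 1.77 and a median distance of -21 bp, which a higher threshold on the same signal brings by construction. Leaving out summits in protein-coding windows gave 37.7% of tRNA genes, and any region of the pooled list 63.7%. A B box core within 50 bp of the summit was found for 15.3% of peaks, since the core begins at about base 52 of the gene while most summits lie upstream. With only the 545 tRNA genes of at least 75% unique sequence the share was 47.0%, and on autosomes alone 40.8%. The share of the machinery list ran from 17.5% to 35% over its alternatives, which were chosen after seeing the data.

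No paired analysis was possible because there was 1 group. Depth is unknown, so whether the tRNA genes with weaker regions or none would pass with more reads was not tested. Only 2 replicates were available, and the control was not analysed here. How reads from identical copies were placed was not tested.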
